A study of Mus musculus with 9 samples.

Results

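The proteasome subunit genes were read in RNA-Seq data from whole newborn mouse lenses. The members were all genes whose symbol is Psm followed by a, b, c, d or e and a number only, which gave 43 of the 47729 genes listed in the deposited tables. This rule reads the symbol alone and no measured value. Lenses came from non-transgenic *FVB/N* mice, from hemizygous *P0-3.9GFPCre* mice, which make a fusion of GFP and CRE recombinase, and from hemizygous *Le-Cre* mice, which make CRE and GFP from 1 transcript. The *Pax6* P0 promoter drives CRE in both transgenes, both lines are on the *FVB/N* background, and 3 pools of 6 lenses from 3 mice were sequenced for each line. The transgene, its place of insertion and the line cannot be told apart, since each transgene was represented by 1 line and the *Le-Cre* strain descends from 1 founder. The comparisons asked whether carrying either CRE transgene in hemizygous state went along with a change in the transcripts of the lens.

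The proteasome is the protease that degrades proteins tagged with ubiquitin in the cytosol and nucleus. Its barrel, the 20S core, is built of outer rings of alpha subunits that form the gate and inner rings of beta subunits, of which 3 carry the active sites. The 19S cap recognises ubiquitin, unfolds the substrate with a ring of ATPases and removes the ubiquitin, while other caps (PA28 and PA200) open the core without ATP. Immune cells and cells exposed to interferon gamma swap the active subunits for immunoproteasome forms. In the lens, proteins of the fiber cells are kept for life and organelles are cleared as fiber cells mature, and the ubiquitin-proteasome pathway is studied for its part in both.

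Total expected counts ranged from 20670968 to 28098059 per pool. The RNA was that of lens. The 11 fiber markers summed to between 244631 and 289513 TPM (transcript abundance scaled for gene length and library size) in the 9 pools. Sums of the 5 lens epithelium markers were 212.63 to 231.67 TPM in *FVB/N*, 210.3 to 230.09 in *P0-3.9GFPCre* and 185.87 to 211.77 in *Le-Cre*. The ranges of these sums were thus separate between *Le-Cre* and *FVB/N*, with *Le-Cre* lower by a narrow margin (211.77 against 212.63 TPM). Taken singly, *Pax6*, *Foxe3* and *Gja1* overlapped between these lines, and *Pdgfra* and *Cdh1* were lower in every *Le-Cre* pool. The *P0-3.9GFPCre* pools of *Pdgfra* also lay below the *FVB/N* pools. Whether the difference in the sums bears on the subunit genes was not tested. Markers of retina summed to at most 5.03 TPM, those of leukocytes and macrophages to at most 2.60 TPM, those of cornea and surface ectoderm to at most 0.53 TPM, and those of mesenchyme to at most 2.99 TPM. Markers of retinal pigment epithelium reached 7.43 TPM, those of vessel endothelium 25.3 to 46.1 TPM, and hemoglobin and other blood markers 85.2 to 263 TPM. Their part in the results was not tested. Transcripts of 4 Y-linked genes varied between pools, from 126 to 194 CPM (counts scaled to a common library total) in *FVB/N*, from 1.66 to 135 in *P0-3.9GFPCre* and from 0.633 to 71.9 in *Le-Cre*, so the mix of sexes in the pools differed in part with the line. Beyond fits with this share as a covariate, its part in the results was not tested. The pools held different mice, and the p-values measure the spread between pools. In whole lenses, fewer cells of a type and less RNA per cell cannot be told apart.

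Short motifs in the promoters of the subunit genes were read from the RefSeq promoter table (GRCm38.p6, 250 bases before to 50 after each gene's start), which held 36 of the 43 members in 39 windows. The ETS site CCGGAAG, searched on both strands, was in 13 of the 39 windows (33.3%), which belong to 12 members, and in 8.86% of all 32851 windows. The core of the antioxidant response element, TGACNNNGC, the kind of element bound by NRF1 (product of *Nfe2l1*) when it drives subunit genes, was in 6 windows (15.4%) against 12.4% of all windows. The CCAAT box was in 14 windows (35.9%) against 37.4%. The interferon-stimulated response element core GAAANNGAA was in 6 windows (15.4%) against 8.56%. A match describes these letters only, and windows are not independent where a gene has more than 1 start.

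The ETS site is shown in 4 promoters because it was the motif most above its share in all windows, with *Psme4* and *Psma6* chosen for their values below and *Psmc6* and *Psmd6* as members of the ATPase ring and the lid. All stretches are 5′ to 3′ on the gene's strand with the match in capitals, and positions are counted from the gene's first base as 0. They are chr11:30771692-30771758 (plus strand, match at -53), chr12:55398663-55398729 (plus strand, the downstream of 2 start sites, match at -132), chr14:45329694-45329760 (plus strand, match at -100) and chr14:14120954-14121020 (minus strand, match at -45).

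Psme4: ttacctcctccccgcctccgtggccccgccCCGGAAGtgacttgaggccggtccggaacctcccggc

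Psma6: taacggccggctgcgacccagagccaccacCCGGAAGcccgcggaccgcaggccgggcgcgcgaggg

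Psmc6: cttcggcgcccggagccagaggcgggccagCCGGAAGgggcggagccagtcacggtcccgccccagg

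Psmd6: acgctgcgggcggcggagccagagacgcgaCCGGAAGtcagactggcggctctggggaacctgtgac

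The antioxidant response element core is shown for *Psmb5* (chr14:54618004-54618072, minus strand, match at -47) and *Psmb6* (chr11:70525318-70525356, plus strand, match at -9), which encode active subunits, and for the assembly chaperone *Psmd9* (chr5:123228129-123228189, plus strand, match at -31).

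Psmb5: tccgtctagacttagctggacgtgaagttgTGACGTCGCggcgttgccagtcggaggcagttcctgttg

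Psmb6: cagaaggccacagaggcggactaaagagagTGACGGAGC

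Psmd9: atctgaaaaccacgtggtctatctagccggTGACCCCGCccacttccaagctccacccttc

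The newborn lens held transcripts of every constitutive subunit of the core and the 19S cap. Together the 43 members made up 3429, 3484 and 3443 TPM in the *FVB/N* pools, 3833, 3584 and 3696 TPM in the *P0-3.9GFPCre* pools and 3521, 3654 and 3468 TPM in the *Le-Cre* pools, which is 0.343% to 0.383% of all TPM. In TPM, all 3 *P0-3.9GFPCre* sums lay above the *FVB/N* sums. *Le-Cre* replicate 3 was the lowest of its line and lay within the *FVB/N* range. The members were not summed in CPM. On the log2 CPM scale, 19, 13 and 25 of the 39 tested members lay above their *FVB/N* mean in the *FVB/N* pools. In the *P0-3.9GFPCre* pools 33, 21 and 28 did so, and in the *Le-Cre* pools 23, 17 and 32. The tested members had a median of 75.6 TPM in *FVB/N*, against 4.73 TPM for the 15557 genes tested, and 38 of the 39 lay above that median gene. The coefficient of variation of CPM between pools of a line had a median of 6.53% over these members, against 12.7% over all genes tested and 6.11% over genes in the members' interquartile range of CPM.

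**Figure D1:**
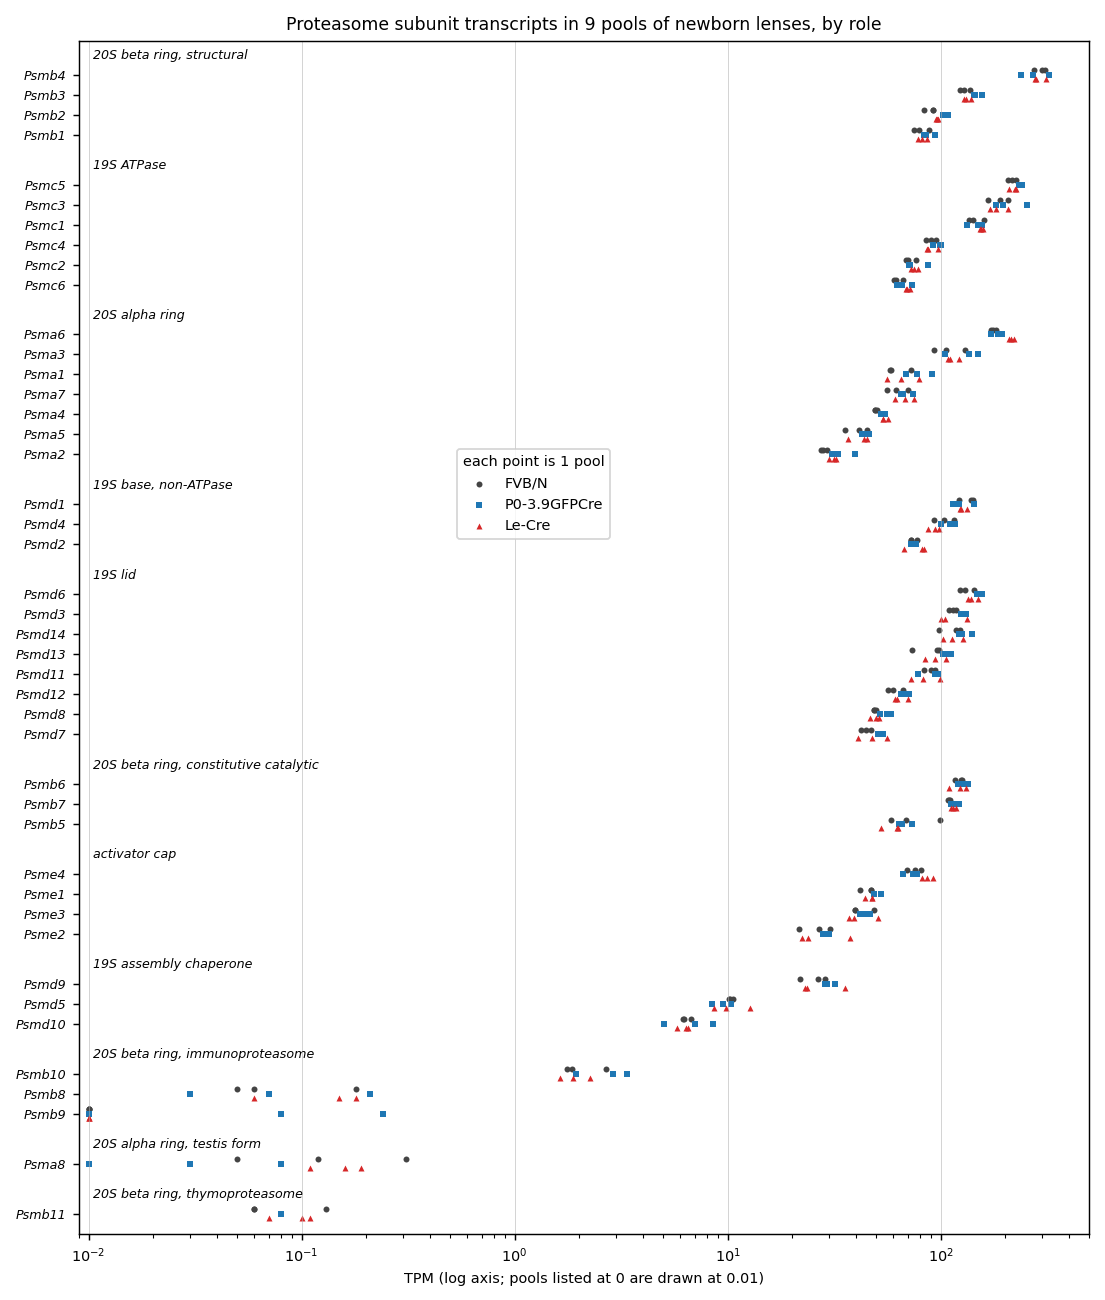
TPM (log axis) of the 43 members in 9 pools, grouped by role and ordered by the *FVB/N* mean within a role; each point is 1 pool and pools listed at 0 are drawn at 0.01. Constitutive core and 19S cap subunits sit between 27.4 and 325 TPM, the 19S assembly chaperones between 5.01 and 35.6 TPM, and the immunoproteasome, thymus and testis forms at or below 3.37 TPM.

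Among the alpha subunits, which build the gated outer rings, *Psma6* was the highest at 178 ± 5.1 TPM in *FVB/N* (SD, n = 3) and *Psma2* the lowest at 28.3 ± 1.0 TPM, although each ring holds both proteins in equal number. *Psma3* (110 TPM), *Psma1* (63.1), *Psma7* (62.9), *Psma4* (49.6) and *Psma5* (40.7) lay between them in *FVB/N*. The *Psma3* level depends on how RSEM shared reads with *Gm13835*, a transcript whose 51-base stretches are all found in *Psma3*. In *FVB/N*, *Psma3* read 51.9, 52.8 and 56.9 CPM and *Gm13835* 42.7, 37.8 and 44.6 CPM. Whether *Psma6* would stay above *Psma3* with the reads of *Gm13835* given to *Psma3* was not tested. About 49.4% of the 51-base stretches of *Psma5* also occur in other transcripts, among them *Gm8394* and *Gm12989*. RSEM gave these copies 0.145% and 0% of the counts summed with *Psma5*, and the *Psma5* level rests on that division. Of the 4 beta subunits without an active site, *Psmb4* was the most abundant member of all, with 275, 310 and 298 TPM in *FVB/N*, 325, 239 and 271 TPM in *P0-3.9GFPCre* and 314, 281 and 278 TPM in *Le-Cre*. The 3 lines overlapped for *Psmb4*, and in *FVB/N* its lowest pool lay above the highest pool of *Psmc5*, the next in order. *Psmb3* (130 TPM), *Psmb2* (89.4) and *Psmb1* (80.6) followed among the structural beta subunits. *Psmb1*, the lowest of them, read 79.0, 74.9 and 88.0 TPM in *FVB/N*, 93.9, 85.4 and 84.1 in *P0-3.9GFPCre* and 78.0, 81.6 and 86.5 in *Le-Cre*, with all lines overlapping.

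In the ATPase ring, which unfolds substrates, *Psmc5* was highest at 217 ± 9.0 TPM and *Psmc6* lowest at 63.0 ± 3.0 TPM in *FVB/N* (SD, n = 3). The *Psmc5* pools read 217, 208 and 226 TPM in *FVB/N*, 242, 238 and 233 in *P0-3.9GFPCre* and 227, 210 and 224 in *Le-Cre*, so that on the TPM scale every *P0-3.9GFPCre* pool lay above the other pools, but in CPM the *Psmc5* pools of all lines overlapped. *Psmc6* read 60.7, 66.4 and 61.9 TPM in *FVB/N*, 73.5, 62.5 and 65.7 in *P0-3.9GFPCre* and 69.0, 71.7 and 69.7 in *Le-Cre*. The *Le-Cre* pools of *Psmc6* lay above the *FVB/N* pools, with the *P0-3.9GFPCre* pools across both. *Psmc3* (189 TPM), *Psmc1* (146), *Psmc4* (90.2) and *Psmc2* (72.0) completed the ring, and *Psmc3* overlaps exons of *Slc39a13* on the other strand, whose reads cannot be told apart where counting ignores strand.

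The scaffold subunits of the base were *Psmd1* (134 ± 10 TPM in *FVB/N*, SD, n = 3), the highest, and *Psmd2* (74.3 ± 2.7 TPM), the lowest, with the ubiquitin receptor *Psmd4* between them at 104 TPM. *Psmd1* read 123, 142 and 139 TPM in *FVB/N*, 144, 114 and 122 in *P0-3.9GFPCre* and 124, 134 and 124 in *Le-Cre*, and *Psmd2* read 72.5, 77.4 and 73.1, then 73.8, 72.7 and 76.5, then 83.8, 81.5 and 67.7 in the same order of lines. Both overlapped between all lines. In the lid, which removes ubiquitin, *Psmd6* was highest with 144, 123 and 130 TPM in *FVB/N*, 153, 149 and 157 in *P0-3.9GFPCre* and 138, 150 and 135 in *Le-Cre*. *Psmd7*, the partner of the deubiquitinase *Psmd14*, was lowest with 47.0, 44.8 and 42.1 TPM in *FVB/N*, 53.7, 50.9 and 52.6 in *P0-3.9GFPCre* and 41.0, 56.3 and 47.6 in *Le-Cre*. For *Psmd6* and *Psmd7* the *P0-3.9GFPCre* pools lay above all *FVB/N* pools and the *Le-Cre* pools overlapped *FVB/N*. The other lid genes were *Psmd3* (114 TPM), *Psmd14* (113), *Psmd13* (89.6), *Psmd11* (89.4), *Psmd12* (61.1) and *Psmd8* (49.1).

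The 3 chaperones that assemble the 19S base, and are not part of the finished cap, were the lowest of the tested constitutive genes: *Psmd9* at 25.7 ± 3.5 TPM, *Psmd5* at 10.3 ± 0.22 TPM and *Psmd10* (gankyrin), the only member on the X chromosome, at 6.403 ± 0.31 TPM in *FVB/N* (SD, n = 3). *Psmd10* read 6.76, 6.24 and 6.21 TPM in *FVB/N*, 7.01, 5.01 and 8.54 in *P0-3.9GFPCre* and 6.50, 5.82 and 6.36 in *Le-Cre*, with all lines overlapping. Of the 42 pairs of neighbours in the *FVB/N* order of all members, 32 overlapped in their pools. The pairs that did not were *Psmb4* and *Psmc5*, *Psma6* and *Psmc1*, *Psmd12* and *Psma4*, *Psmd8* and *Psme1*, *Psma5* and *Psma2*, *Psmd9* and *Psmd5*, *Psmd5* and *Psmd10*, *Psmd10* and *Psmb10*, *Psmb10* and *Psma8*, and *Psmb11* and *Psmb9*.

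Of the transcripts that encode active subunits, almost all were those of the constitutive forms. *Psmb6*, which carries the caspase-like site, read 117, 126 and 125 TPM in *FVB/N*, 134, 120 and 128 in *P0-3.9GFPCre* and 132, 110 and 123 in *Le-Cre*. *Psmb7*, with the trypsin-like site, read 109, 111 and 110 TPM in *FVB/N*, 122, 112 and 116 in *P0-3.9GFPCre* and 112, 118 and 115 in *Le-Cre*. All lines overlapped for *Psmb6*, and for *Psmb7* the *FVB/N* pools were the lowest. The comparisons between lines below rest on CPM, on which the pools of *Psmb7* overlapped. *Psmb7* overlaps exons of *Nek6* on the other strand.

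*Psmb5*, with the chymotrypsin-like site, read 58.4, 69.2 and 99.3 TPM in *FVB/N*, 66.2, 64.2 and 73.3 in *P0-3.9GFPCre* and 63.0, 52.7 and 62.8 in *Le-Cre*. The third *FVB/N* pool stood above the other 8. Of the 51-base stretches of *Psmb5*, 53.2% are found in other transcripts, and its copy *Gm3375* shares 55.6% of its own stretches with *Psmb5*. In CPM, *Psmb5* was at 45.5, 52.8 and 80.6 in *FVB/N* and *Gm3375* at 23.3, 16.6 and 3.23, so the pool that was high for the gene was low for the copy. Summed, the pair came to 68.8, 69.4 and 83.9 CPM in *FVB/N*, 70.3, 57.2 and 72.2 in *P0-3.9GFPCre* and 68.2, 52.9 and 69.5 in *Le-Cre*.

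**Figure D2:**
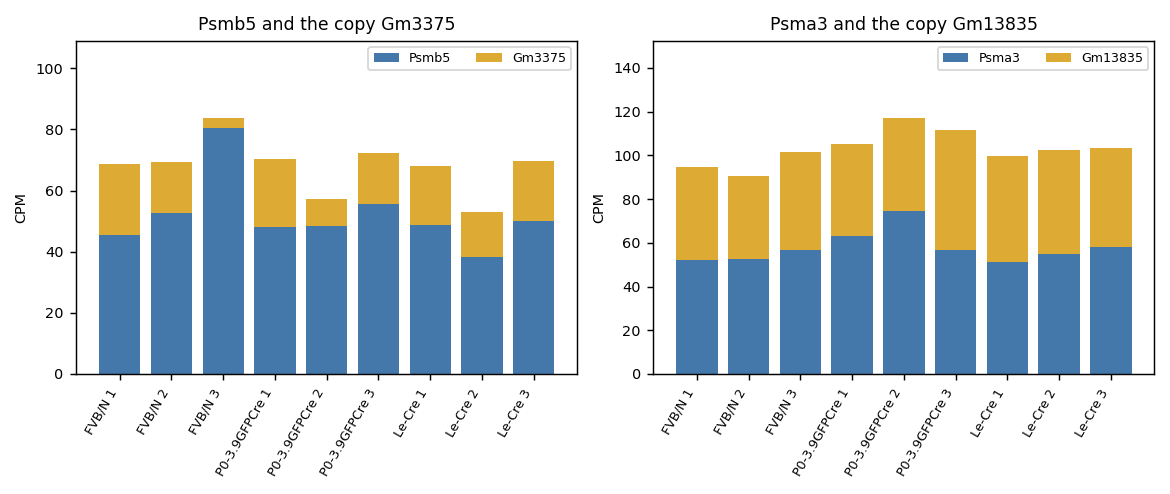
TMM-normalised CPM (bars, stacked, axis from 0) of *Psmb5* with the copy *Gm3375* and of *Psma3* with the copy *Gm13835* in each of the 9 pools. *Gm3375* falls to 3.23 CPM in *FVB/N* replicate 3, where *Psmb5* reaches 80.6 CPM, while *Gm13835* stays between 37.8 and 54.9 CPM.

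The immunoproteasome forms were low or nearly undetected in every line. *Psmb10*, the counterpart of *Psmb7*, read 1.77, 2.69 and 1.87 TPM in *FVB/N*, 2.89, 3.37 and 1.95 in *P0-3.9GFPCre* and 2.26, 1.89 and 1.64 in *Le-Cre*, which was 1.41% to 2.92% of the TPM of both. *Psmb8*, the counterpart of *Psmb5*, read 0.18, 0.06 and 0.05 TPM in *FVB/N*, 0.03, 0.07 and 0.21 in *P0-3.9GFPCre* and 0.15, 0.06 and 0.18 in *Le-Cre*, from 1 to 8 counts per pool, at most 0.307% of the TPM of *Psmb5* and *Psmb8*. *Psmb9*, the counterpart of *Psmb6*, was listed at 0 in 7 of the 9 pools and had 2 counts in *P0-3.9GFPCre* replicate 1 and 1 count in replicate 3. A count of 0 allows up to 3 counts, or 0.107 to 0.145 CPM of a pool's total, and this limit covers counting error only. *Psmb10* was the only one of the 3 that could be tested.

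The leukocyte and macrophage markers, read beside these forms, had sums of 0.77 to 1.24 TPM in *FVB/N*, 0.81 to 2.60 in *P0-3.9GFPCre* and 1.17 to 1.55 in *Le-Cre* over 7 of 7 listed genes, of which *Ptprc* was listed at 0 in 5 pools and reached 0.06 TPM at most. Their part in these levels was not tested. *Psmb11*, the active subunit of the thymus form, read 0.06, 0.06 and 0.13 TPM in *FVB/N*, 0.08 in each *P0-3.9GFPCre* pool and 0.07, 0.10 and 0.11 in *Le-Cre*. *Psma8*, the testis form of an alpha subunit, read 0.12, 0.31 and 0.05 TPM in *FVB/N*, 0.08, 0.03 and 0 in *P0-3.9GFPCre* and 0.16, 0.19 and 0.11 in *Le-Cre*, on 0 to 11 counts. *Psmb8*, *Psmb9*, *Psmb11* and *Psma8* did not pass the filter on low counts, and no comparison of any of them is given.

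**Figure D3:**
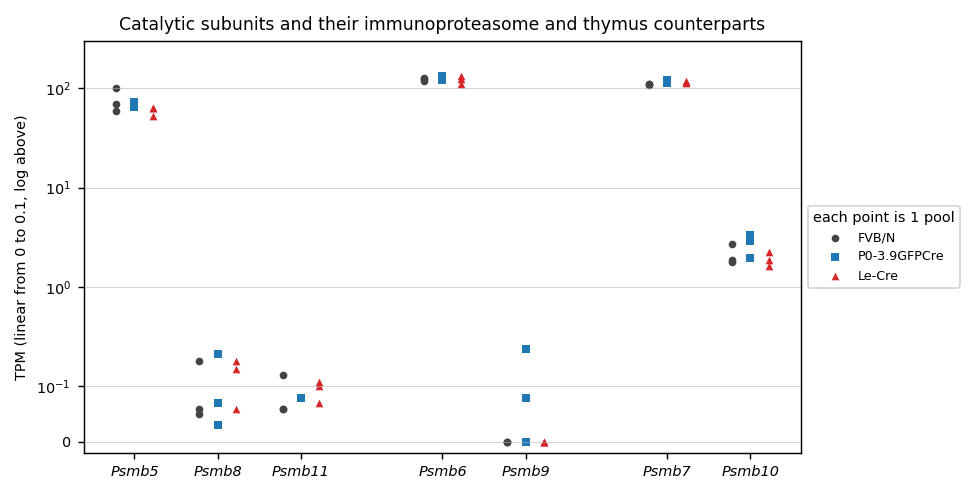
TPM (linear from 0 to 0.1, log above) of the 3 constitutive active subunits and of their immunoproteasome and thymus counterparts; each point is 1 pool. The constitutive subunits sit between 52.7 and 134 TPM, *Psmb10* between 1.64 and 3.37 TPM, and *Psmb8*, *Psmb9* and *Psmb11* at or below 0.24 TPM.

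The activator caps were led by *Psme4* (PA200), a large nuclear activator. It read 81.0, 76.2 and 69.5 TPM in *FVB/N*, 77.7, 66.9 and 73.9 in *P0-3.9GFPCre* and 81.8, 91.9 and 86.0 in *Le-Cre*, the *Le-Cre* pools being the highest 3 of the 9. The alpha and beta subunits of PA28, which interferon gamma induces in other cells, were present at 45.3 ± 3.0 TPM (*Psme1*) and 26.4 ± 4.3 TPM (*Psme2*) in *FVB/N* (SD, n = 3). *Psme1* read 47.1, 41.8 and 47.1 TPM in *FVB/N*, 48.6, 52.4 and 48.8 in *P0-3.9GFPCre* and 47.6, 47.8 and 44.3 in *Le-Cre*. *Psme2* read 27.0, 21.8 and 30.4, then 28.1, 30.04 and 28.0, then 37.7, 23.8 and 22.3 TPM in the same order of lines. *Psme3*, the nuclear PA28 gamma, read 39.9, 48.6 and 39.8 TPM in *FVB/N*, 43.8, 46.6 and 41.9 in *P0-3.9GFPCre* and 37.1, 50.7 and 39.2 in *Le-Cre*. In TPM, *Psme2* and *Psme3* overlapped between all lines and the *P0-3.9GFPCre* pools of *Psme1* lay above the rest. In CPM, the *Psme1* pools of all lines overlapped, while the *P0-3.9GFPCre* pools lay above the *FVB/N* pools for *Psme2* (17.6 to 18.8 against 14.0 to 17.5 CPM) and *Psme3* (67.0 to 71.4 against 65.2 to 65.4 CPM). *Psme1* and *Psme2* lie 5911 bases apart on chromosome 14, and *Psmb8* and *Psmb9* 9956 bases apart on chromosome 17 (GENCODE M21, GRCm38).

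No member differed between *Le-Cre* and *FVB/N* at the cutoff, a change of 1.5-fold or more with an adjusted p no higher than 0.05 (edgeR quasi-likelihood test). At this cutoff 0 of the 39 members tested were called, against 0.0643% of all 15557 genes, and DESeq2 called 0 members with or without a prior. The median log2 fold change of the members was 0.02, against -0.00 over all genes tested, and 26 members were above 0 and 13 below. The smallest adjusted p of a member was 0.573. At an unadjusted p under 0.05, 2 members were higher (3.60% of all genes were) and 0 lower (4.35%). The pools of 3 members lay entirely above *FVB/N* (6.46% of genes) and of 0 members below it (7.03%).

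For 37 of the 39 members the 95% interval of the *Le-Cre* to *FVB/N* ratio lay inside 1.5-fold in either direction, with *Psmb5* and *Psmb10* the exceptions, and 35 fitted ratios were within 10% of 1. All 7 tested alpha subunits and all 4 activator genes had fitted values above 0 (up to 0.21 on the log2 scale), and the 3 assembly chaperones values below 0 (down to -0.08), but the test separated none of them.

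The 2 members with an unadjusted p under 0.05 were *Psme4* and *Psma6*. *Psme4* read 464, 415 and 409 CPM in *FVB/N* and 472, 497 and 505 CPM in *Le-Cre*. Every *Le-Cre* pool was above every *FVB/N* pool, *FVB/N* replicate 1 being close to the lowest *Le-Cre* pool, and the log2 fold change was 0.20 (SE 0.076, unadjusted p = 0.0258, adjusted p = 0.573 by edgeR). The *Psme4* value was 0.16 with the Y-linked share in the fit (unadjusted p = 0.1625 by edgeR) and 0.16 to 0.26 without 1 pool. *Psma6* read 118, 112 and 134 CPM in *FVB/N* and 149, 126 and 146 CPM in *Le-Cre*, with 1 pool of each line overlapping and a log2 fold change of 0.21 (SE 0.084, unadjusted p = 0.0302, adjusted p = 0.586 by edgeR). With the Y-linked share in the fit, the *Psma6* value was 0.09 (unadjusted p = 0.418 by edgeR). In TPM the *Psma6* pools were 177, 173 and 183 in *FVB/N*, 194, 173 and 187 in *P0-3.9GFPCre* and 221, 214 and 209 in *Le-Cre*, without overlap of *Le-Cre* with the other pools. *Psmb5* had the lowest fitted value, -0.39 (SE 0.18, adjusted p = 0.659), which became -0.10 without *FVB/N* replicate 3, -0.22 with *Gm3375* summed in and -0.20 with the DESeq2 prior. It became -0.66 with the Y-linked share in the fit and -0.55 without *FVB/N* replicate 1.

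Between *P0-3.9GFPCre* and *FVB/N*, again 0 of 39 members were called by edgeR, as were 0% of all genes tested, and DESeq2 called 0 members. This comparison shares its *FVB/N* pools with the one above. The median member log2 fold change was 0.05, against 0.00 over all genes, and 30 members lay above 0 and 9 below. All 8 lid genes had fitted values above 0 (0.01 to 0.16), as did 6 of the 7 alpha subunits and 3 of the 4 structural beta subunits. Values above 0 were also fitted for 5 of 6 ATPase genes, 3 of 4 activator genes, 2 of 3 assembly chaperones and *Psmb10*. Of the 3 other base genes and of the 3 constitutive active subunits, only 1 each was above 0 and 2 were below. The pools of 10 members, 25.6% of those tested, lay entirely above the *FVB/N* pools, against 6.02% of all genes, and of 1 member entirely below (5.94% of genes). These 10 were *Psma2*, *Psmb2*, *Psmb3*, *Psmd3*, *Psmd6*, *Psmd7*, *Psmd9*, *Psmd14*, *Psme2* and *Psme3*, with ratios of at most 1.16 in the fit, and the 1 was *Psmd5*. Some of these separations were narrow. The nearest pools of *FVB/N* and *P0-3.9GFPCre* read 173.11 and 173.18 CPM for *Psmd6*, and 17.51 and 17.64 CPM for *Psme2*. The smallest adjusted p of a member was 0.661, and the interval lay inside 1.5-fold for 37 members, with *Psmb5* and *Psmb10* again the exceptions.

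At an unadjusted p under 0.05, 4 members were higher in *P0-3.9GFPCre* (3.41% of all genes) and 1 lower (3.41%). *Psma3* had the largest of these values, with 51.9, 52.8 and 56.9 CPM in *FVB/N* and 63.1, 74.5 and 56.6 CPM in *P0-3.9GFPCre*, a log2 fold change of 0.26 (SE 0.097, adjusted p = 0.661 by edgeR). *P0-3.9GFPCre* replicate 2 was the highest pool, without which the *Psma3* value was 0.16, and replicate 3 lay inside the *FVB/N* range. The transcript *Gm13835*, all of whose 51-base stretches occur in *Psma3*, held 44.1% of the summed counts of the pair, and the sum was 94.7, 90.5 and 102 CPM in *FVB/N* and 105, 117 and 111 CPM in *P0-3.9GFPCre*, without overlap. *Psma2* read 23.2, 24.5 and 24.8 CPM in *FVB/N* and 31.5, 27.2 and 25.6 CPM in *P0-3.9GFPCre*, with a log2 fold change of 0.22 (SE 0.084, adjusted p = 0.662 by edgeR) that was 0.13 without *P0-3.9GFPCre* replicate 1.

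Of the structural beta subunits, *Psmb2* and *Psmb3* varied little between pools of a line (3.61% and 2.53%), and *Psmb1* (8.54%) and *Psmb4* (8.03%) more than the median member. *Psmb2* read 62.4, 60.5 and 60.2 CPM in *FVB/N* and 66.0, 68.6 and 70.6 CPM in *P0-3.9GFPCre* (log2 fold change 0.16, SE 0.062, adjusted p = 0.662 by edgeR). *Psmb3* read 87.7, 91.7 and 87.3 CPM in *FVB/N* and 98.9, 95.3 and 96.0 CPM in *P0-3.9GFPCre* (log2 fold change 0.12, SE 0.055, adjusted p = 0.722 by edgeR). The pools of both genes did not overlap. The chaperone *Psmd5* read 32.6, 32.0 and 33.3 CPM in *FVB/N* and 30.02, 25.9 and 29.8 CPM in *P0-3.9GFPCre*, and its log2 fold change of -0.19 (SE 0.076, adjusted p = 0.662 by edgeR) was opposite in sign to the lid genes and was -0.12 without *P0-3.9GFPCre* replicate 2.

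**Figure D4:**
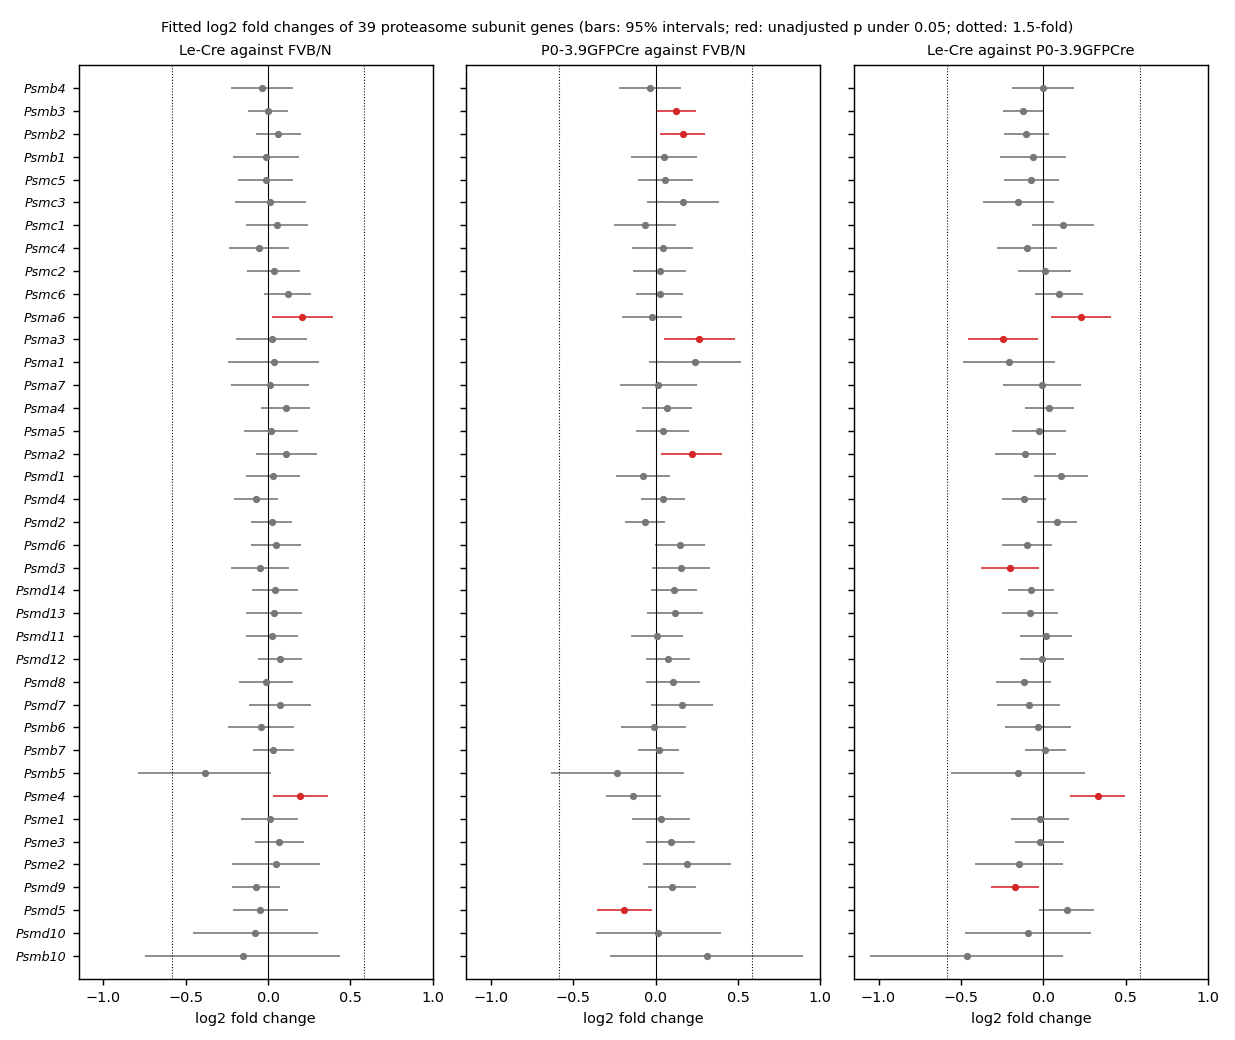
Fitted log2 fold changes (points) with 95% intervals (bars) of the 39 tested members in the 3 comparisons, in the order of the plot of levels; red marks an unadjusted p under 0.05 and dotted lines 1.5-fold. Points crowd around 0 in each panel, and the widest intervals are those of *Psmb5* and *Psmb10*.

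Between the transgenic lines, 0 of 39 members were called in *Le-Cre* against *P0-3.9GFPCre*, as were 0% of all genes tested by edgeR, and DESeq2 called 0 members at 1.5-fold. The median member log2 fold change was -0.07, against -0.00 over all genes, with 11 members above 0 and 28 below. At an unadjusted p under 0.05, 2 members were higher in *Le-Cre* (3.63% of genes) and 3 lower (4.25%). The pools of 3 members lay entirely above *P0-3.9GFPCre* (6.74% of genes) and of 4 entirely below (7.37%). The interval lay inside 1.5-fold for 38 members, all but *Psmb10*, whose log2 fold change was -0.47 (SE 0.27, adjusted p = 0.724 by edgeR). The *Psmb10* value was -0.28 without *P0-3.9GFPCre* replicate 2 and -0.17 with the DESeq2 prior.

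*Psme4* showed the smallest p of any member. It read 418, 354 and 400 CPM in *P0-3.9GFPCre* and 472, 497 and 505 CPM in *Le-Cre*, with the *FVB/N* pools at 464, 415 and 409 CPM. The lines did not overlap, *Le-Cre* being higher, the ratio was 1.26 (95% interval 1.12 to 1.41), and the log2 fold change was 0.33 (SE 0.076, unadjusted p = 0.00112, adjusted p = 0.378 by edgeR). DESeq2 gave an adjusted p of 0.00772 without a prior and 0.00683 with one, and edgeR without the filter on low counts 0.0188. The size stayed below the 1.5-fold cutoff in each of these fits, and the adjusted p ranged from 0.217 to 0.751 in the other edgeR alternatives. No 51-base stretch of *Psme4* occurs in another transcript.

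*Psma6* read 124, 115 and 119 CPM in *P0-3.9GFPCre* against the 149, 126 and 146 CPM of *Le-Cre*, again without overlap (log2 fold change 0.23, SE 0.084, adjusted p = 0.531 by edgeR). *Psma3*, *Psmd3* and *Psmd9* were lower in *Le-Cre* at an unadjusted p under 0.05. *Psma3* read 51.02, 54.9 and 58.1 CPM in *Le-Cre*, which overlapped the lowest *P0-3.9GFPCre* pool (log2 fold change -0.24, SE 0.097, adjusted p = 0.556 by edgeR). This *Psma3* value was -0.13 with *Gm13835* summed in and also -0.13 without *P0-3.9GFPCre* replicate 2. The lid gene *Psmd3* read 118, 120 and 110 CPM in *FVB/N*, 125, 131 and 131 CPM in *P0-3.9GFPCre* and 103, 127 and 107 CPM in *Le-Cre*, where replicate 2 overlapped *P0-3.9GFPCre* (log2 fold change -0.20, SE 0.080, adjusted p = 0.556 by edgeR). *Psmd9* read 28.4, 28.7 and 27.9 CPM in *FVB/N*, 30.3, 29.8 and 30.9 CPM in *P0-3.9GFPCre* and 26.5, 28.4 and 25.8 CPM in *Le-Cre*, without overlap between the transgenic lines (log2 fold change -0.17, SE 0.066, adjusted p = 0.538 by edgeR). Exons of *Psmd9* overlap the noncoding gene *Gm26745* on the other strand over 25.5% of their length.

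**Figure D5:**
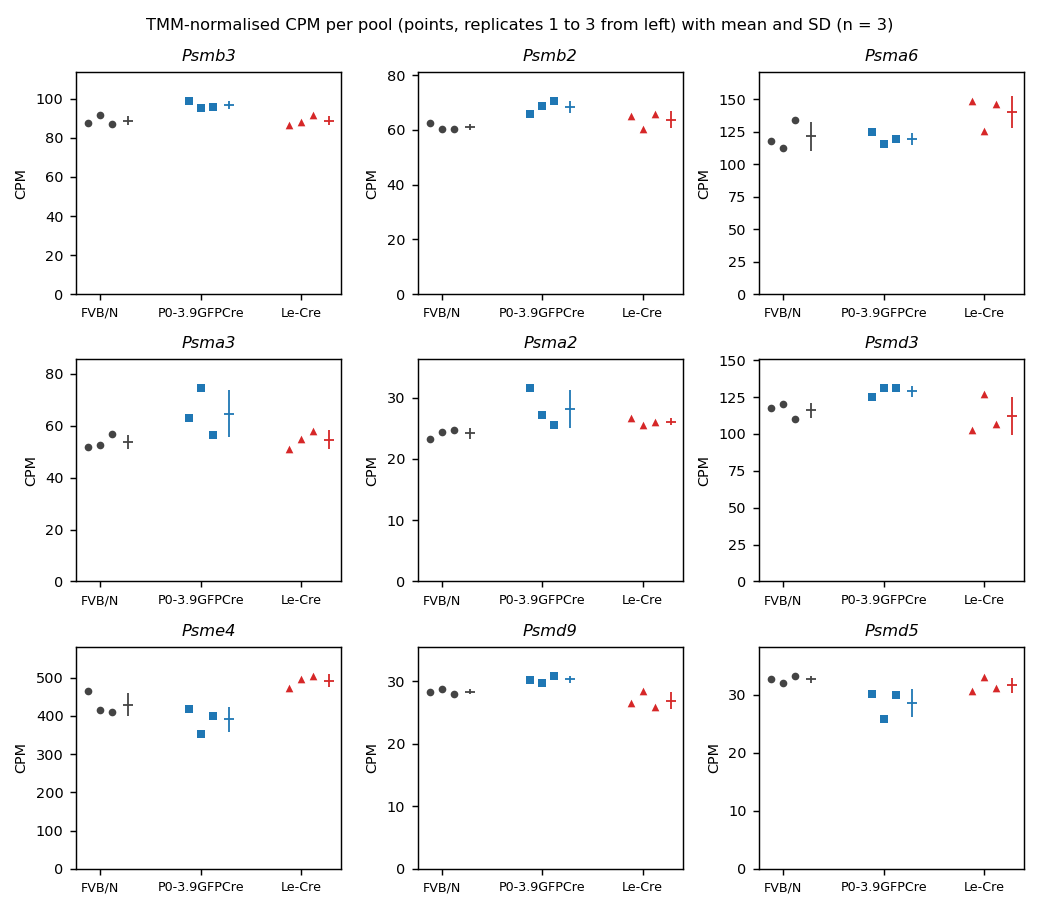
TMM-normalised CPM (axes from 0) of the 9 members with an unadjusted p under 0.05 in any comparison; points are pools and the bar beside them the mean and SD (n = 3). *Psme4* in *Le-Cre* sits between 472 and 505 CPM against 354 to 418 CPM in *P0-3.9GFPCre*.

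Across the 39 tested members, the median deviation from the *FVB/N* mean was -0.01, -0.03 and 0.04 on the log2 scale in the *FVB/N* pools, 0.06, 0.04 and 0.08 in the *P0-3.9GFPCre* pools and 0.02, -0.01 and 0.07 in the *Le-Cre* pools. The *P0-3.9GFPCre* medians were the highest as a group, and *Le-Cre* replicate 3 lay among them. With the Y-linked share of counts in the fit, the median *P0-3.9GFPCre* to *FVB/N* fold change was 0.01, and without *FVB/N* replicate 3 it was 0.09.

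Of 53 further genes of the pathway, in 8 lists, 48 were tested and 0 were called in any comparison by edgeR. At an unadjusted p under 0.05, 1 was higher and 2 lower in *Le-Cre* against *FVB/N* (3.60% and 4.35% of all genes), 2 higher and 0 lower in *P0-3.9GFPCre* against *FVB/N* (3.41% each), and 2 higher and 3 lower in *Le-Cre* against *P0-3.9GFPCre* (3.63% and 4.25%). *Nfe2l1*, which encodes the transcription factor NRF1 that raises subunit genes when the proteasome is inhibited, read 53.8, 51.4 and 42.9 TPM in *FVB/N*, 55.2, 50.4 and 57.1 in *P0-3.9GFPCre* and 47.9, 45.1 and 40.4 in *Le-Cre*. The *Le-Cre* pools lay below the *P0-3.9GFPCre* pools (log2 fold change -0.13, adjusted p = 0.584 by edgeR). Of the other genes of this axis, *Mafg*, a small MAF partner of NRF1, was at 77.7 ± 3.6 TPM in *FVB/N*, 89.2 ± 8.0 in *P0-3.9GFPCre* and 76.4 ± 7.4 in *Le-Cre* (SD, n = 3). Its log2 fold change was 0.15 in *P0-3.9GFPCre* against *FVB/N* (adjusted p = 0.722) and -0.21 in *Le-Cre* against *P0-3.9GFPCre* (adjusted p = 0.470).

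*Syvn1*, a ubiquitin ligase of the endoplasmic reticulum, was at 7.51 ± 0.56 TPM in *FVB/N* and 9.60 ± 0.98 in *P0-3.9GFPCre* (log2 fold change 0.26, adjusted p = 0.662 by edgeR). *Ngly1*, whose product removes sugar chains from NRF1, was at 4.44 ± 0.47 TPM in *FVB/N* and 3.84 ± 0.33 in *Le-Cre* (log2 fold change -0.23, adjusted p = 0.622 by edgeR). Of the 6 core assembly chaperones and inhibitor genes, *Psmg2* had a log2 fold change of 0.20 in *Le-Cre* against *P0-3.9GFPCre* (adjusted p = 0.623). In the list of 15 genes for MHC class I processing and the interferon response, 10 were tested, and *B2m*, the light chain of MHC class I, was at 9.16 ± 0.54 TPM in *FVB/N*, 8.82 ± 1.6 in *P0-3.9GFPCre* and 11.96 ± 1.6 in *Le-Cre* (SD, n = 3). The log2 fold change of *B2m* was 0.35 in *Le-Cre* against *FVB/N* (adjusted p = 0.553) and 0.47 in *Le-Cre* against *P0-3.9GFPCre* (adjusted p = 0.429), while the peptide transporter genes *Tap1* and *Tap2* were too low to test. The 2 other 19S subunits, 7 proteasome-bound cofactors, 2 ubiquitin E1 genes and 7 shuttle factors had no member at an unadjusted p under 0.05.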

How the data were processed

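RNA-Seq measured polyadenylated RNA of 9 pools (3 per line). The authors trimmed single-end reads of 51 bases with Trimmomatic 0.36, aligned them with GSNAP to GRCm38 and estimated gene abundance by RSEM 1.3.0. Reads of near-identical copies are thereby divided by estimation. The annotation and whether strand was used in counting are not given in the sources used here. The deposited expected counts are RSEM's estimated counts without normalisation. The deposited TPM and FPKM are the authors' values scaled for length and library, and TPM served to compare levels between genes. The authors also deposited a posterior SD of each count, which was not used in a test.

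Counts were rounded and tested in R 4.3.3 with edgeR 4.0.16 (TMM normalisation, filterByExpr defaults, 1 coefficient per line over all 9 pools, quasi-likelihood F test, Benjamini-Hochberg adjustment over 15557 genes), after a check on simulated data. DESeq2 1.42.0 was an alternative. The authors used DESeq2 1.10.1, and their cutoff was kept. CPM values are TMM-normalised. Total expected counts were 20670968 to 28098059 per pool, and intervals and limits cover counting error or the spread between pools only. Gene positions and the search for shared stretches of 51 bases used GENCODE M21 (GRCm38), in which all 43 members were found. A copy was summed into a member where at least 50% of its stretches and at least 5% of the member's were shared.

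Samples were grouped by line from the labels. For 1 *FVB/N* pool the label's description and title give different numbers, and the title was used. Same-numbered pools of different lines did not deviate together (9 pairs, mean correlation 0.03, from -0.15 to 0.14), so the replicate block is an alternative only. Replicates of a line differed by far more than sampling noise (chi-square per degree of freedom 9.77 to 40.8). Per-pool values are given for members at an unadjusted p under 0.05, the active subunits and their counterparts, *Psma8*, the activator genes and the highest and lowest member of each role. The rule for members reads only gene symbols, but this gene family and the lists were picked with earlier results of these data known. Some results of a motif and of a gene in these lists are not reported here.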

Additional observations from a re-analysis of the deposited data

Results flagged for a closer look

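*Psme4* drew attention because its pools lay on opposite sides of the *FVB/N* mean in the transgenic lines: all 3 *Le-Cre* pools were above it and all 3 *P0-3.9GFPCre* pools below it, with a log2 fold change of 0.33 between the lines. This pattern occurred in 1 of the 39 tested members and in 3.37% of all genes tested. The difference itself was tested in the comparison of the transgenic lines and had an adjusted p of 0.378 by edgeR.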

How the results depend on the processing

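The number of members called stayed at 0 in all 3 comparisons under every alternative that kept the 1.5-fold limit and in each fit that left out 1 pool. When the fold limit was dropped, 0 members were called by edgeR with its filter on low counts, and in *Le-Cre* against *P0-3.9GFPCre* 1 member (*Psme4*) passed with DESeq2 without a prior, DESeq2 with a prior, or edgeR without that filter, combinations chosen after seeing the data. Fits without 1 pool gave median member fold changes on the log2 scale of -0.00 to 0.05 in *Le-Cre* against *FVB/N*, 0.036 to 0.088 in *P0-3.9GFPCre* against *FVB/N* and -0.099 to -0.016 in *Le-Cre* against *P0-3.9GFPCre*. The *P0-3.9GFPCre* against *FVB/N* median moved by more than the spread between pools when the Y-linked share entered the fit (0.011) and without *FVB/N* replicate 3 (0.088). The *Le-Cre* against *P0-3.9GFPCre* median did so with the DESeq2 prior (-0.026, over 43 members, by construction shrunk towards 0) and without *P0-3.9GFPCre* replicate 1 (-0.04), *P0-3.9GFPCre* replicate 3 (-0.03) or *Le-Cre* replicate 2 (-0.016). The cause was not tested for the others. With the replicate block, 0 members were called and the medians were 0.02, 0.06 and -0.07, and it changed no call of a member. Over all genes, 10, 0 and 0 were called in *Le-Cre* against *FVB/N*, *P0-3.9GFPCre* against *FVB/N* and *Le-Cre* against *P0-3.9GFPCre*, against 131, 93 and 123 with no filter on low counts, 5, 0 and 0 when genes needed an average of 10 counts, 49, 11 and 32 with DESeq2 without a prior, 8, 1 and 4 with its prior, 13, 0 and 31 with the compared pools alone, 2, 0 and 0 with the replicate block, 0 with the Y-linked share, and 0 to 10, 0 to 14 and 0 to 18 without 1 pool. All 252 alternative values of 14 named fold changes kept their sign. These fold changes were picked by their values in the same pools, which the alternatives refit, so the kept signs are no independent support. The order of levels in *FVB/N* was the same for 41 of 43 members in FPKM and 36 in log2(TPM + 1). The lowest members rested on few counts, and differences among them were not tested.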
